A study of Mus musculus with 20 samples.

Results

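A set of 10 genes picked by name is described here: Cyb5r2, Trim66, Fam129a, Abca13, B230209E15Rik, BB557941, Apobec1, Apobr, Amz1 and Bhlha15. They are 10 of the 24421 genes in the deposited tables. They were named because they lay near 0 in untreated motor neuron cultures and were higher after cyclopiazonic acid (CPA). The difference between CPA and untreated cultures therefore chose them, and it is given as a description with no test, as are their untreated levels. Tests are given for differences between lines and between times within CPA-treated cultures, whose libraries also entered that choice.

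The cultures held motor neurons programmed from stem cells of mouse embryos, and total RNA was sequenced after ribosomal RNA removal. The NIP line carries Neurog2, Isl1 and Phox2a and gives cranial motor neurons; the NIL line carries Neurog2, Isl1 and Lhx3 and gives spinal motor neurons. Day 2 cultures received 20 µM CPA, and each line was sampled untreated at 0 h, after 12 h with CPA or untreated, and after 36 h with CPA or untreated, with 2 libraries per group and 20 in all. The sample titles give 12 and 36 h, which were followed here, while the treatment text and the series design give 6 and 12 h. All groups share the Neurobasal-based medium with serum, and both groups of a pair carry the programming factors of their line. No label says whether the libraries of a group came from separate cultures, so p-values measure the spread between these libraries, which may be technical.

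CPA blocks the pump that loads calcium into the endoplasmic reticulum, and proteins then misfold there. Cells answer through the unfolded protein response, whose XBP1 and ATF6 arms raise chaperones and degradation factors, while the PERK arm acts through ATF4 and CHOP on amino acid supply, redox balance and cell death. The ATF4 factors bind a composite C/EBP and ATF element, whereas ATF6 and XBP1 bind the ER stress elements.

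Gene reads per library numbered 7996454 to 30321152; levels are in CPM, reads scaled to a common library size after TMM correction for composition, and 1 read was worth 0.0319 to 0.128 CPM. The line labels matched the programming factors: Phox2a ranged over 56.9 to 322 CPM in NIP libraries and 0.0839 to 3.31 CPM in NIL libraries, while Lhx3 ranged over 0 to 0.326 CPM in NIP and 115 to 166 CPM in NIL. The ribosomal precursor Rn45s took 5.18 to 38.6% of gene reads, most in untreated NIP at 36 h replicate 1 and in CPA-treated NIL at 36 h replicate 2. Replicate set 2 held more reads from other cells: summed markers of pluripotent cells ranged over 35.4 to 675 CPM in set 2 and 11.7 to 175 CPM in set 1. In such mixed cultures, fewer cells of a type and less RNA per cell cannot be told apart.

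Against its label, the set was not near 0 in every untreated library. With near 0 taken as at most 0.5 CPM, BB557941 alone stayed below that level in all 12 untreated libraries, with a highest value of 0.109 CPM. The highest untreated values were 13.9 CPM for Trim66, 6.95 CPM for Fam129a, 1.47 CPM for Cyb5r2 and 1.09 CPM for B230209E15Rik, each in NIP at 0 h. The other 5 genes peaked between 0.542 and 0.760 CPM without CPA. Across all genes, 9547 of 24421 stayed at or below 0.5 CPM in every untreated library, and 16 of those reached at least 1 CPM in every library of some CPA group; BB557941 was the 1 member among these 16.

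All 10 members passed the filter on low counts, which kept 14792 genes. Of the 10 members, 6 would have passed on the untreated libraries alone; Abca13, B230209E15Rik, BB557941 and Apobr passed through their CPA libraries, whereas 14421 of the 14792 tested genes would have passed without CPA.

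**Figure D1:**
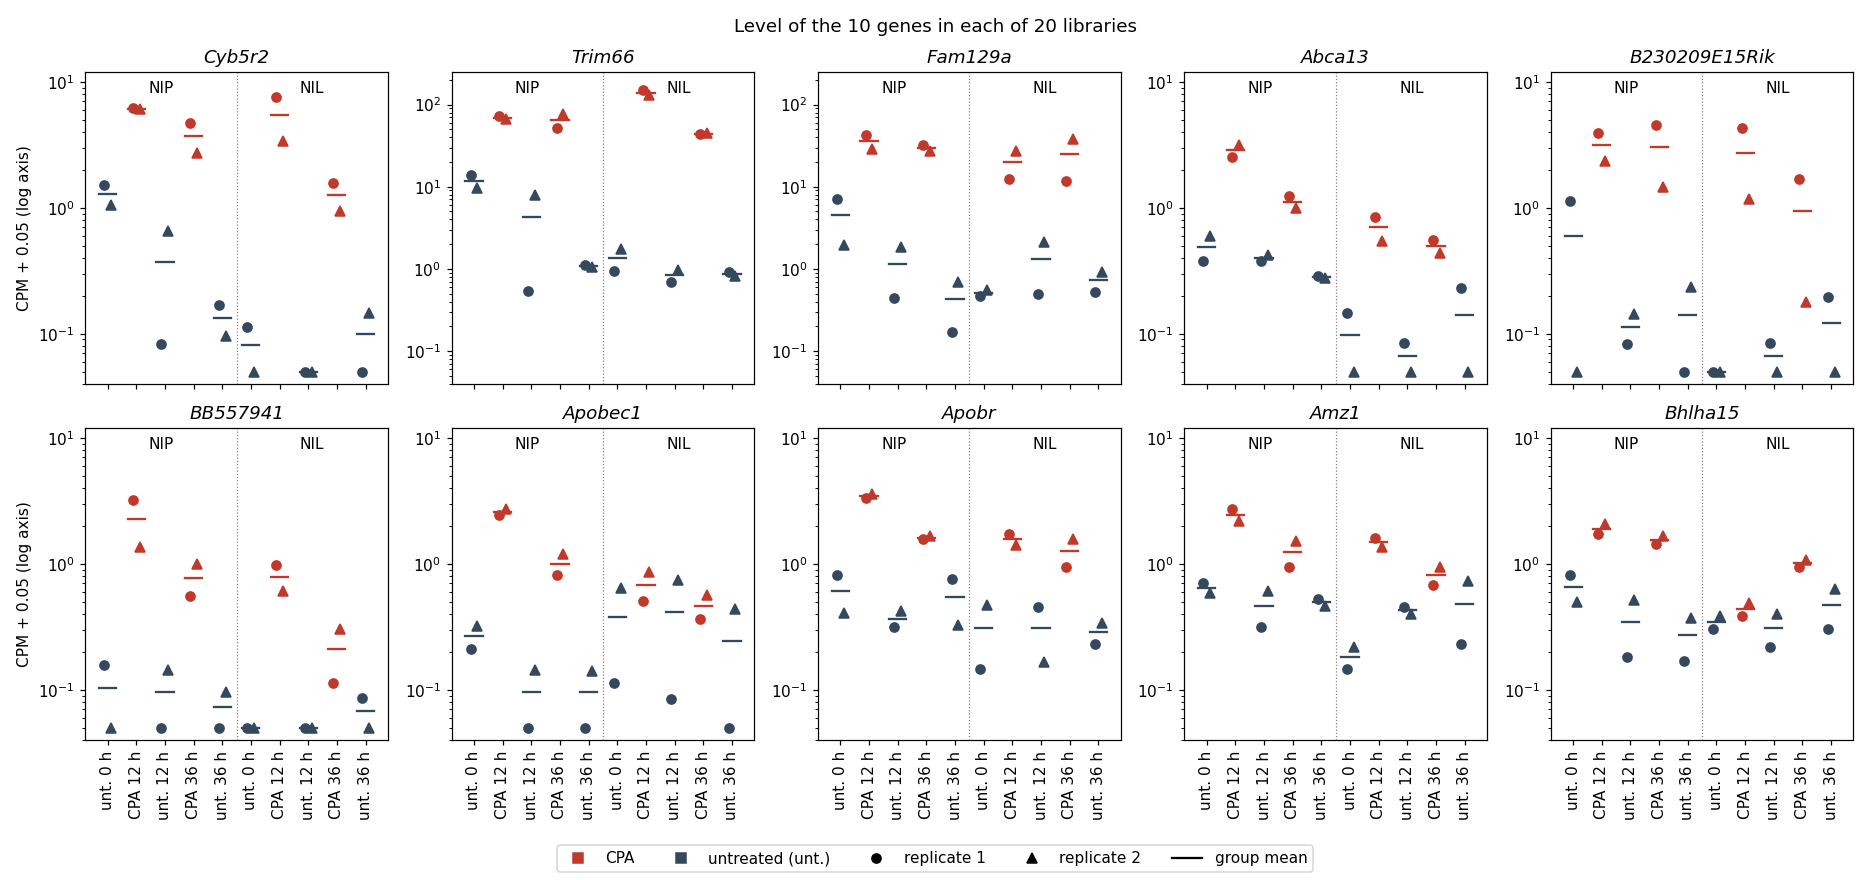
Level of each gene in every library, as CPM plus 0.05 on a log axis, for NIP on the left and NIL on the right of each panel; points are libraries (circles replicate 1, triangles replicate 2) and bars are group means. The NIP libraries at 0 h lie above the NIL libraries at 0 h for Trim66, Fam129a and Cyb5r2, and the 2 untreated NIP libraries at 12 h stand apart for Trim66 (7.99 CPM in replicate 2 and 0.493 CPM in replicate 1).

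Taking CPA against untreated cultures of the same line and time, both CPA libraries lay above both untreated libraries for 10 of 10 members in NIP at 12 h and 10 of 10 in NIP at 36 h. In NIL the count was 8 of 10 at 12 h and 7 of 10 at 36 h. Among all tested genes this held for 27.1% and 20.9% in NIP at 12 and 36 h, and for 17.8% and 21% in NIL at 12 and 36 h; since the members were picked on this contrast, nothing is read from the difference. The median member was 20.9-fold higher with CPA in NIP at 12 h, 17.1-fold in NIP at 36 h, 16.2-fold in NIL at 12 h and 5.03-fold in NIL at 36 h, from pooled counts with a floor of 3 counts over a group at 0. All 8 CPA libraries lay above all 12 untreated libraries for Trim66, Fam129a and Apobr, as they did for 0.852% of tested genes.

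Promoter sequences were looked up for all 10 members in RefSeq (GRCm38.p6, 250 bases before to 50 after the start) and searched on both strands. The 4 matches to the C/EBP and ATF element are shown because ATF4 and CHOP act through such elements; capitals mark the match, bases run in the direction of the gene, and positions count from the start of transcription. Windows that reach transcribed bases are kept to 30 bases.
B230209E15Rik (chr7:61615466-61615525, minus strand): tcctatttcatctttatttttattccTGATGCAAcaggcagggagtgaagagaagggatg
Abca13 (chr11:9191823-9191882, plus strand): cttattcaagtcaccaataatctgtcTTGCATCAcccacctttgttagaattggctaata
Apobec1 (chr6:122602426-122602455, minus strand): tcctgctcgccTGATGCAAacccctgccgc
Cyb5r2 (chr7:107758003-107758032, minus strand): actgccggatgTTTCATCAtccccaccatc
The matches begin at base -172 in B230209E15Rik, -93 in Abca13, 1 in Apobec1 and 12 in Cyb5r2, and those in Abca13 and Cyb5r2 lie on the opposite strand.

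The element TGATGNAA was thus found in 4 of 10 members, beside 3.97% of 32851 promoters, 2.32% of those of tested genes and 6.78% of the 516 promoters of other genes that passed higher with CPA. Its stricter form TGATGCAA, which lies within the first, was found in 3 of 10 (Abca13, Apobec1 and B230209E15Rik), beside 0.895% of all promoters, 0.61% of tested genes and 3.49% of the other CPA-raised genes. The ER stress elements ERSE and ERSE-II, the XBP1 element TGACGTGG and the cyclic AMP element TGACGTCA were found in 0 of 10 windows. These 4 were found in 0.119%, 0.0365%, 0.676% and 1.79% of all promoters, and in 1.74%, 0.581%, 2.33% and 1.94% of those of the other CPA-raised genes. No match in the window says nothing of a factor's binding elsewhere, and no test was made on the 10.

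Of the regulators, Trim66 was the most abundant member. Trim66 encodes a chromatin cofactor of the TIF1 family, best known from male germ cells, and lies on chromosome 7 (GRCm38, bases 109449006 to 109508134, minus strand). It had 72.4 and 66.4 CPM (1508 and 1583 reads) in NIP after 12 h of CPA, against 0.493 and 7.99 CPM (15 and 172 reads) in untreated NIP at 12 h. In NIL after 12 h of CPA it had 150 and 130 CPM (3575 and 2089 reads), against 0.645 and 0.929 CPM (19 and 8 reads) in untreated NIL. The CPA and untreated libraries did not overlap in either line, and NIL after 12 h of CPA held the highest Trim66 values of the series.

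By 36 h of CPA, Trim66 had 52.3 and 77.3 CPM in NIP, against 1.07 and 1.01 CPM in untreated NIP at 36 h. NIL at 36 h had 43.8 and 44.9 CPM with CPA, against 0.869 and 0.778 CPM untreated. The pooled fold was 200 in NIL at 12 h (95% counting interval 137 to 304), 52.3 in NIL at 36 h, 19.2 in NIP at 12 h and 60.4 in NIP at 36 h. Counting intervals here cover counting error only, since reads without molecular identifiers are not independent molecules. Of the untreated NIP reads at 12 h, 172 came from replicate 2 and 15 from replicate 1. None of the 3 family relatives (Trim24, Trim28 and Trim33) passed in any CPA comparison; with the replicate block 1 passed lower in NIP at 36 h.

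Fam129a, named Niban1 in RefSeq and known as a stress-induced regulator of translation, lies on chromosome 1 (151571186 to 151721939, plus strand). It had 42.0 and 29.0 CPM in NIP after 12 h of CPA, against 0.394 and 1.81 CPM in untreated NIP at 12 h. At 36 h it had 32.0 and 27.5 CPM with CPA in NIP, against 0.119 and 0.642 CPM untreated. The CPA libraries of the 2 times overlapped in level, and no CPA library of NIP overlapped an untreated one of its time.

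In NIL the Fam129a replicates were far apart: 12.4 and 27.4 CPM with CPA at 12 h, against 0.442 and 2.09 CPM untreated, and 11.6 and 38.1 CPM with CPA at 36 h, against 0.470 and 0.876 CPM untreated. Replicate 2 was higher in each of these NIL groups. Neither of the 2 relatives, Fam129b and Fam129c, passed in any CPA comparison.

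Bhlha15 (MIST1) is a basic helix-loop-helix factor that maintains secretory cells such as pancreatic acinar cells, and it is a known target of XBP1 there. It lies on chromosome 5 (144190286 to 144194441, plus strand). It had 1.68 and 2.01 CPM (35 and 48 reads) in NIP after 12 h of CPA, against 0.131 and 0.465 CPM untreated. In NIL after 12 h of CPA it had 0.336 and 0.435 CPM (8 and 7 reads), against 0.170 and 0.348 CPM (5 and 3 reads) untreated. The NIL groups overlapped at 12 h, and the pooled fold of 1.79 had a counting interval from 0.711 to 4.87.

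At 36 h of CPA, Bhlha15 had 1.40 and 1.62 CPM in NIP, against 0.119 and 0.321 CPM untreated. NIL had 0.888 and 1.03 CPM with CPA, against 0.253 and 0.584 CPM untreated, so that the NIL groups no longer overlapped. Among markers of plasma and exocrine cells, Prss1 had no read in any of 20 libraries. Cpa1 had none in 18, Ctrb1 in 15 and Cela1 in 14. Prdm1, Jchain and Irf4 each lacked reads in 1 library. Sdc1 had reads in every library, with means of 40.6 CPM with CPA and 41.1 CPM untreated. None of the 4 tested relatives of Bhlha15, and not the 1 tested gene among its 4 exocrine targets, passed in any CPA comparison without the replicate block; with it 3 relatives passed higher in NIL at 36 h, 1 in NIP at 36 h, and the target passed lower in NIL at 36 h.

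Among the enzymes, Cyb5r2 encodes a reductase that passes electrons from NADH to cytochrome b5, and lies on chromosome 7 (107748455 to 107758032, minus strand). It had 6.14 and 6.04 CPM (128 and 144 reads) in NIP after 12 h of CPA, against 0.0329 and 0.604 CPM (1 and 13 reads) untreated. NIL after 12 h of CPA had 7.47 and 3.36 CPM (178 and 54 reads), against no read in either untreated library, which is at least 73.7-fold higher against the floor of 3 counts over the group, while the counting interval reaches down to 59.5. The untreated zeros allow up to 3 counts, and both lines reached a like level at 12 h.

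After 36 h of CPA, Cyb5r2 had 4.65 and 2.69 CPM in NIP, against 0.119 and 0.0459 CPM untreated. It had 1.52 and 0.899 CPM in NIL, against 0 and 0.0973 CPM untreated. One of its 4 relatives also rose in every CPA comparison: Cyb5r1 was 2.12 ± 0.31 log2 units higher (SE) in NIP at 12 h and 2.59 ± 0.32 higher in NIL at 12 h (edgeR adjusted p = 0.00201 and 0.000778). The other 3, Cyb5r3, Cyb5r4 and Cyb5rl, did not pass.

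Apobec1, the cytidine deaminase that edits apolipoprotein B mRNA, lies on chromosome 6 (122577792 to 122602444, minus strand). It had 2.40 and 2.68 CPM (50 and 64 reads) in NIP after 12 h of CPA, against 0 and 0.0929 CPM (0 and 2 reads) untreated. In NIL after 12 h of CPA it had 0.462 and 0.808 CPM (11 and 13 reads), against 0.0340 and 0.697 CPM (1 and 6 reads) untreated. The NIP groups were well apart, while the NIL groups overlapped at both times.

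At 36 h of CPA, Apobec1 had 0.762 and 1.14 CPM in NIP, against 0 and 0.0917 CPM untreated, and 0.317 and 0.514 CPM in NIL, against 0 and 0.389 CPM untreated. In untreated NIL the reads came mostly from replicate set 2, with 0.593, 0.697 and 0.389 CPM at 0, 12 and 36 h, against 0.0637, 0.0340 and 0 CPM in set 1. In the fit with the replicate number as a block, Apobec1 was 1.19 ± 0.41 log2 units higher in set 2 than in set 1 (SE, edgeR adjusted p = 0.0239), as 49.2% of tested genes differed between the sets. Summed endoderm markers moved the same way, at 2331 to 26537 CPM in set 2 and 357 to 12353 CPM in set 1; their part in the Apobec1 reads was not tested. None of the 3 tested genes among the partners and target of Apobec1, and none of its 2 tested relatives, passed in a CPA comparison; with the block 1 partner passed higher in NIL at 36 h.

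Amz1 encodes a zinc metallopeptidase of the archaemetzincin family (chromosome 5, 140724127 to 140761439, plus strand). It had 2.69 and 2.14 CPM (56 and 51 reads) in NIP after 12 h of CPA, against 0.263 and 0.557 CPM untreated, and 1.55 and 1.31 CPM in NIL, against 0.408 and 0.348 CPM untreated. After 36 h of CPA it had 0.889 and 1.48 CPM in NIP, against 0.477 and 0.413 CPM untreated, and 0.634 and 0.899 CPM in NIL, against 0.181 and 0.681 CPM untreated. The groups overlapped in NIL at 36 h alone, and its only relative, Amz2, did not pass in any CPA comparison (with the block it passed lower in NIL at 36 h).

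Of the transport and receptor genes, Abca13 encodes a very large lipid transporter of the ABC-A family (chromosome 11, 9191942 to 9684259, plus strand). It had 2.50 and 3.10 CPM (52 and 74 reads) in NIP after 12 h of CPA, against 0.329 and 0.372 CPM (10 and 8 reads) untreated. In NIL after 12 h of CPA it had 0.797 and 0.497 CPM (19 and 8 reads), against 0.0340 and 0 CPM (1 and 0 reads) untreated. By 36 h the CPA libraries had 1.18 and 0.943 CPM in NIP, against 0.238 and 0.229 CPM untreated, and 0.508 and 0.385 CPM in NIL, against 0.181 and 0 CPM untreated. No group pair overlapped, and none of the 10 tested relatives among Abca genes passed in a CPA comparison. With the replicate block 3 of these passed higher and 1 lower in NIP at 12 h, 2 higher in NIL at 12 h and 1 lower in NIL at 36 h.

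Apobr encodes a receptor for apolipoprotein B48 that macrophages use to take up lipoproteins (chromosome 7, 126584942 to 126589112, plus strand). It had 3.26 and 3.57 CPM (68 and 85 reads) in NIP after 12 h of CPA, against 0.263 and 0.372 CPM untreated, and 1.68 and 1.37 CPM (40 and 22 reads) in NIL, against 0.408 and 0.116 CPM untreated. After 36 h of CPA it had 1.52 and 1.62 CPM in NIP, against 0.715 and 0.275 CPM untreated, and 0.888 and 1.54 CPM in NIL, against 0.181 and 0.292 CPM untreated. Every CPA library lay above every untreated one.

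Of the leukocyte markers, Tyrobp had no read in 19 of 20 libraries, Adgre1 in 17 and Ptprc in 13. Aif1 and Cx3cr1 had none in 10 each, Itgam in 9 and Csf1r in 3, while Cd68 had reads in every library. Neither of the 2 tested of the 8 markers passed in a CPA comparison (with the block 1 passed higher in NIL at 36 h). Their summed level was 1.15 to 9.89 CPM with CPA and 0.883 to 5.93 CPM untreated, largely from Cd68. In NIP after 12 h of CPA, where Apobr was highest, the sum was 1.15 and 1.26 CPM. The part of such cells in the Apobr reads was not tested. None of the 6 other lipoprotein receptors passed in a CPA comparison.

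The remaining members are noncoding RNAs. B230209E15Rik, a long intergenic RNA on chromosome 7 (61529871 to 61615327, minus strand), had 3.89 and 2.31 CPM (81 and 55 reads) in NIP after 12 h of CPA, against 0.0329 and 0.0929 CPM (1 and 2 reads) untreated. It had 4.24 and 1.12 CPM (101 and 18 reads) in NIL after 12 h of CPA, against 0.0340 and 0 CPM untreated. At 36 h of CPA it had 4.53 and 1.41 CPM in NIP, against 0 and 0.183 CPM untreated, and 1.65 and 0.128 CPM (26 and 1 reads) in NIL, against 0.145 and 0 CPM untreated. Replicate 2 was the lower one in all 4 CPA groups and the higher one in untreated NIP at 12 and 36 h. In the fit of all groups with the replicate block, the gene was 1.55 ± 0.40 log2 units lower in set 2 than in set 1 (SE, edgeR adjusted p = 0.00487). Between the sets 49.2% of tested genes differed, and this gene passed the filter on low counts only through its CPA libraries.

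BB557941, a processed transcript on chromosome 2 (57127479 to 57181754, minus strand), was the quietest member without CPA, with 6 reads over the 12 untreated libraries. It had 3.17 and 1.30 CPM (66 and 31 reads) in NIP after 12 h of CPA, against 0 and 0.0929 CPM untreated, and 0.923 and 0.560 CPM (22 and 9 reads) in NIL, against no read untreated. After 36 h of CPA it had 0.508 and 0.943 CPM in NIP, against 0 and 0.0459 CPM untreated, and 0.0634 and 0.257 CPM (1 and 2 reads) in NIL, against 0.0362 and 0 CPM untreated. At 36 h in NIL the pooled fold was 4.83, with a counting interval from 0.388 to 254.

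Set per kilobase of exon, so that genes can be compared, the order after 12 h of CPA was led in both lines by Trim66, Fam129a and Cyb5r2. In NIP these had 6.85, 4.81 and 2.20 CPM per kb, and in NIL 13.8, 2.70 and 1.95 CPM per kb. Abca13 came last in both, at 0.142 CPM per kb in NIP and 0.0328 in NIL.

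Comparing the lines after 12 h of CPA asks whether cranial and spinal neurons reached the same levels. Of the 10 members, 2 passed the test with higher levels in NIP, Abca13 and Bhlha15. The choice of members used the levels of these same libraries against untreated ones, but not the line. Abca13 and Bhlha15 both had their highest CPA group mean in NIP at 12 h. Their calls are therefore not independent of that choice, and no line difference is read from them. Abca13 averaged 2.80 ± 0.43 CPM in NIP and 0.647 ± 0.212 CPM in NIL (SD, n = 2 each), a log2 difference of 2.08 ± 0.57 (SE; edgeR quasi-likelihood test, Benjamini-Hochberg adjusted p = 0.0343). Bhlha15 averaged 1.85 ± 0.24 CPM in NIP and 0.385 ± 0.070 CPM in NIL, a log2 difference of 2.26 ± 0.58 (edgeR adjusted p = 0.0241). Among all tested genes 6.77% were higher in NIP, 3.39% lower, and 10.2% differed either way. The test compares levels, not the response to CPA. Untreated at 12 h, Abca13 averaged 0.350 CPM in NIP (18 reads) and 0.0170 CPM in NIL (1 read). Bhlha15 averaged 0.298 CPM in NIP and 0.259 CPM in NIL there.

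Abca13 passed the filter on low counts through its CPA libraries alone, and with no filter its edgeR adjusted p was 0.0564, so that call ended; that of Bhlha15 was 0.0388. Leaving out any 1 of the 4 libraries also ended both, with edgeR adjusted p of 0.100 to 0.248 for Abca13 and 0.0844 to 0.150 for Bhlha15. With the replicate block both held, at edgeR adjusted p = 0.00279 and 0.00211. Apobec1 passed too, at 2.09 ± 0.65 log2 units higher in NIP (edgeR adjusted p = 0.024, against 0.276 without the block). That fit called 3946 of 14792 tested genes either way, against 1504 without the block.

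A positive difference was found for 9 of the 10 members, with a median of 0.998 log2 units against 0.0385 over all tested genes. In 7 of them both NIP libraries lay above both NIL libraries, which held for 33.3% of tested genes. The members were chosen for high levels in CPA libraries, and 9 had their highest CPA group mean in NIP at 12 h. Nothing is therefore read from these counts or the median. The 7 were Fam129a, Abca13, BB557941, Apobec1, Apobr, Amz1 and Bhlha15, while Cyb5r2 and B230209E15Rik overlapped. Trim66 alone ran the other way. It averaged 69.4 ± 4.2 CPM over the NIP libraries and 140 ± 14 CPM over the NIL libraries with no overlap, a log2 difference of -1.01 ± 0.66 that did not pass (edgeR adjusted p = 0.384; 95% interval -2.48 to 0.45). Fitted on these 4 libraries alone it did pass, at an edgeR adjusted p of 0.00889.

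**Figure D2:**
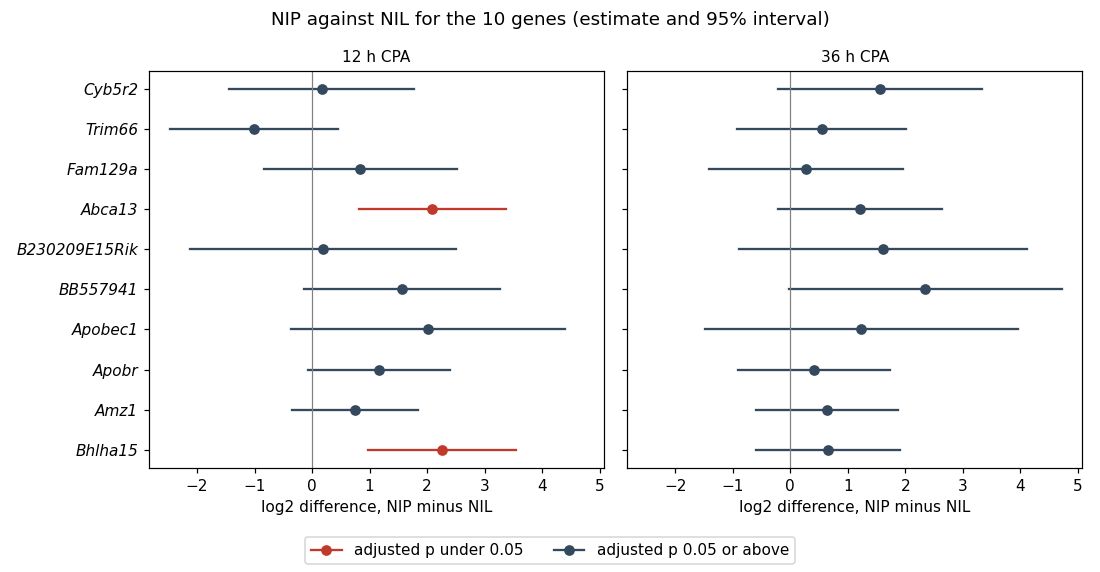
Log2 difference of NIP minus NIL for the 10 genes, after 12 h of CPA and after 36 h of CPA; points are edgeR estimates, bars their 95% intervals, and red marks an adjusted p under 0.05. The red points are Abca13 and Bhlha15 after 12 h of CPA, and the Trim66 point alone lies left of 0 there (-1.01).

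After 36 h of CPA none of the 10 differed between the lines by edgeR with Benjamini-Hochberg adjustment, where 16.9% of tested genes did (10.4% higher and 6.56% lower in NIP); BB557941 was the 1 member at an unadjusted p under 0.05, and DESeq2 called none. All 10 estimates were positive, with a median of 0.936 log2 units against 0.0311 over all tested genes. In 6 of them both NIP libraries lay above both NIL libraries, as in 27.2% of tested genes. These CPA libraries also entered the choice of the members, so nothing is read from these counts or the median. Cyb5r2 averaged 3.67 ± 1.39 CPM in NIP and 1.21 ± 0.44 CPM in NIL (log2 difference 1.56 ± 0.80, edgeR adjusted p = 0.193). Trim66 averaged 64.8 ± 17.7 CPM in NIP and 44.4 ± 0.8 CPM in NIL (log2 difference 0.55 ± 0.66, edgeR adjusted p = 0.6).

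The lines also differed in the other cells their cultures hold. After 12 h of CPA, summed markers of pluripotent cells were 25.3 and 69.8 CPM in NIP, against 64.3 and 299 CPM in NIL, and summed markers of dividing cells were 35.0 and 111 CPM in NIP, against 183 and 494 CPM in NIL. Neuronal markers summed to 4037 and 3176 CPM in NIP, against 3005 and 2024 CPM in NIL. With the replicate block 8 of 9 tested pluripotency markers, 8 of 8 markers of dividing cells and 12 of 13 endoderm markers were lower in NIP. Without it none of these passed, while 3 of 6 tested mesenchyme markers passed lower (6 with the block). Over all 14792 tested genes the block fit called 3946 either way, against 1504 without it. Their part in the line differences of the members was not tested.

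Setting 36 h against 12 h of CPA within a line, no member passed in either line by edgeR with Benjamini-Hochberg adjustment. In NIL 3 members had an unadjusted p under 0.05 and DESeq2 called none; 0.0676% of tested genes were called (0.027% higher and 0.0406% lower). The 3 were Cyb5r2, Trim66 and BB557941. Cyb5r2 averaged 1.21 ± 0.44 CPM at 36 h and 5.41 ± 2.91 CPM at 12 h in NIL (log2 difference -2.12 ± 0.80, edgeR adjusted p = 0.335). With the replicate block this difference passed (edgeR adjusted p = 0.0392), as did 1925 of 14792 tested genes either way.

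Trim66 in NIL averaged 44.4 ± 0.8 CPM at 36 h and 140 ± 14 CPM at 12 h (log2 difference -1.66 ± 0.67, edgeR adjusted p = 0.347), and in NIP 64.8 ± 17.7 CPM at 36 h and 69.4 ± 4.2 CPM at 12 h (-0.10 ± 0.65). The NIL libraries of the 2 times did not overlap, and the NIP libraries did. Both 12 h libraries lay above both 36 h libraries for 4 members in NIL, as in 23.8% of tested genes, and for 7 members in NIP, as in 20.7%. These CPA libraries entered the choice of the members, so nothing is read from these 2 counts.

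In NIP all 10 estimates were negative, with a median of -0.879 log2 units against 0.00979 over all tested genes. The members were chosen for high levels in CPA libraries, and 9 had their highest CPA group mean in NIP at 12 h. Nothing is therefore read from this count or median. Abca13 was the 1 member with an unadjusted edgeR p under 0.05, and DESeq2 called no member. Of tested genes 0.379% were called (0.196% higher and 0.183% lower). Abca13 averaged 1.06 ± 0.17 CPM at 36 h and 2.80 ± 0.43 CPM at 12 h in NIP (log2 difference -1.38 ± 0.55, edgeR adjusted p = 0.304). Apobec1 averaged 0.953 ± 0.271 CPM at 36 h and 2.54 ± 0.20 CPM at 12 h. The 7 genes without overlap were lower at 36 h in both NIP libraries, though none of these differences passed the test.

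Bhlha15 was the 1 member that was higher at 36 h than at 12 h in both NIL libraries, at 0.958 ± 0.098 CPM at 36 h and 0.385 ± 0.070 CPM at 12 h (log2 difference 1.30 ± 0.61, edgeR adjusted p = 0.393). In NIP it averaged 1.51 ± 0.16 CPM at 36 h and 1.85 ± 0.24 CPM at 12 h (-0.30 ± 0.52). The difference between the lines in this change was -1.60 ± 0.80 log2 units and did not pass (edgeR, unadjusted p = 0.0669, adjusted p = 1). Without the block edgeR called no tested gene in that comparison (0%), nor in the line difference of the response to CPA at 12 h (0%) or 36 h (0%). With the block it called 9, 0 and 19 genes in the same order, none of them members. DESeq2 called 12, 8 and 20 genes. DESeq2 called no member in these 3 comparisons either. An unadjusted p under 0.05 was found for 3 members in the response at 12 h and for none at 36 h or in the change with time. Since the response to CPA chose the members, nothing is read from these 3.

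**Figure D3:**
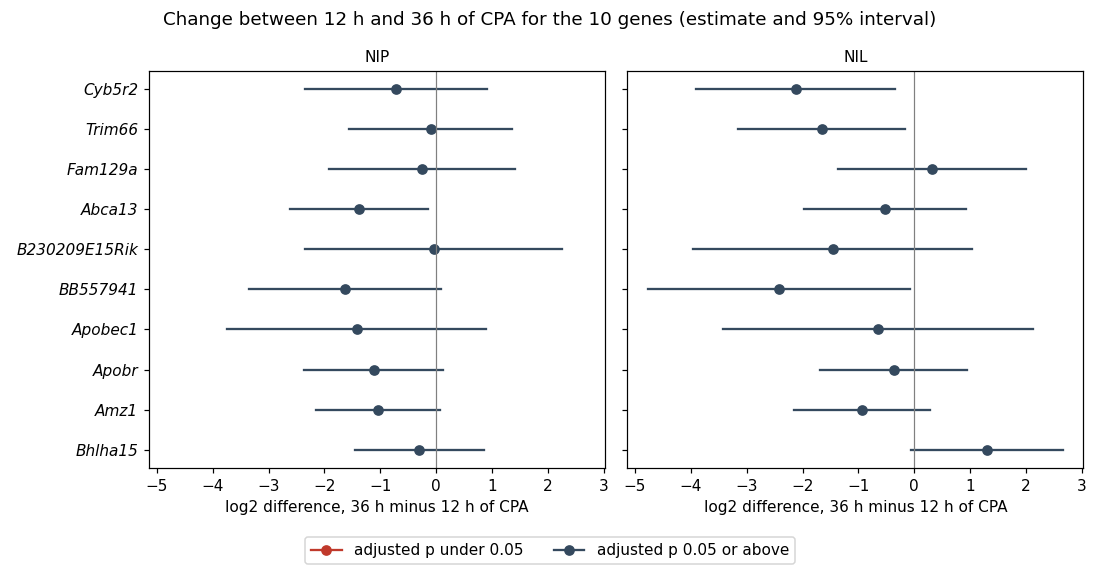
Log2 difference of 36 h minus 12 h of CPA for the 10 genes, in NIP and in NIL; points are edgeR estimates and bars their 95% intervals, and no adjusted p was under 0.05. All 10 NIP points lie at or left of 0, and in NIL Bhlha15 (1.30) and Fam129a (0.31) lie to the right.

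At the start, before any CPA, several members had more reads in NIP than in NIL. The untreated levels entered the choice of the members, and these values were set side by side after they had been seen, so they are a description with no test. Trim66 had 13.9 and 9.57 CPM (257 and 106 reads) in NIP at 0 h, against 0.892 and 1.69 CPM (28 and 20 reads) in NIL. Fam129a had 6.95 and 1.90 CPM in NIP, against 0.414 and 0.508 CPM in NIL, and neither gene's lines overlapped.

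Cyb5r2 had 1.47 and 0.993 CPM (27 and 11 reads) in NIP at 0 h, against 0.0637 and 0 CPM (2 and 0 reads) in NIL; the ratio of pooled counts was 27.8 with a counting interval from 7.19 to 238. Amz1 averaged 0.596 ± 0.077 CPM in NIP and 0.132 ± 0.052 CPM in NIL (SD, n = 2 each). B230209E15Rik had 1.09 and 0 CPM (20 and 0 reads) in NIP and no read in NIL, so it rests on 1 library. In 6 of the 10 both NIP libraries lay above both NIL libraries, as in 26.7% of tested genes. Apobec1 averaged 0.217 ± 0.076 CPM over the NIP libraries and 0.328 ± 0.374 CPM over the NIL libraries.

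The untreated NIP libraries at 12 h went separate ways. Replicate 2 had 172 Trim66 reads (7.99 CPM), 13 Cyb5r2 reads (0.604 CPM) and 39 Fam129a reads (1.81 CPM), whereas replicate 1 had 15, 1 and 12 reads. For Trim66 that is 16.2 times the level of replicate 1. Abca13 (0.372 and 0.329 CPM) and Apobr (0.372 and 0.263 CPM) were alike in replicates 2 and 1. By 36 h untreated, Trim66 had 1.07 and 1.01 CPM in NIP.

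The libraries with high untreated Trim66 also had the highest untreated sums of the ATF4 and CHOP list. The summed level was 1170 and 1178 CPM in untreated NIP at 0 h and 1015 CPM in replicate 2 of untreated NIP at 12 h, against 558 CPM in its replicate 1 and 472 to 650 CPM in the 8 remaining untreated libraries. Asns alone gave 505 and 504 CPM of the sums in NIP at 0 h and 454 CPM in replicate 2 at 12 h. Not every gene of the list moved so. Chac1 had 27.8 and 25.5 CPM in NIP at 0 h, against 1.72 and 3.64 CPM in NIL. Sesn2 had 85.7 and 95.1 CPM in NIP at 0 h, against 96.6 and 139 CPM in NIL. The summed XBP1 and ATF6 list was 1889 CPM in replicate 2 and 1846 CPM in replicate 1 of untreated NIP at 12 h. At 0 h that list had 3034 and 2020 CPM in NIP, against 1622 and 2011 CPM in NIL. The part of these lists in the members' levels was not tested.

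**Figure D4:**
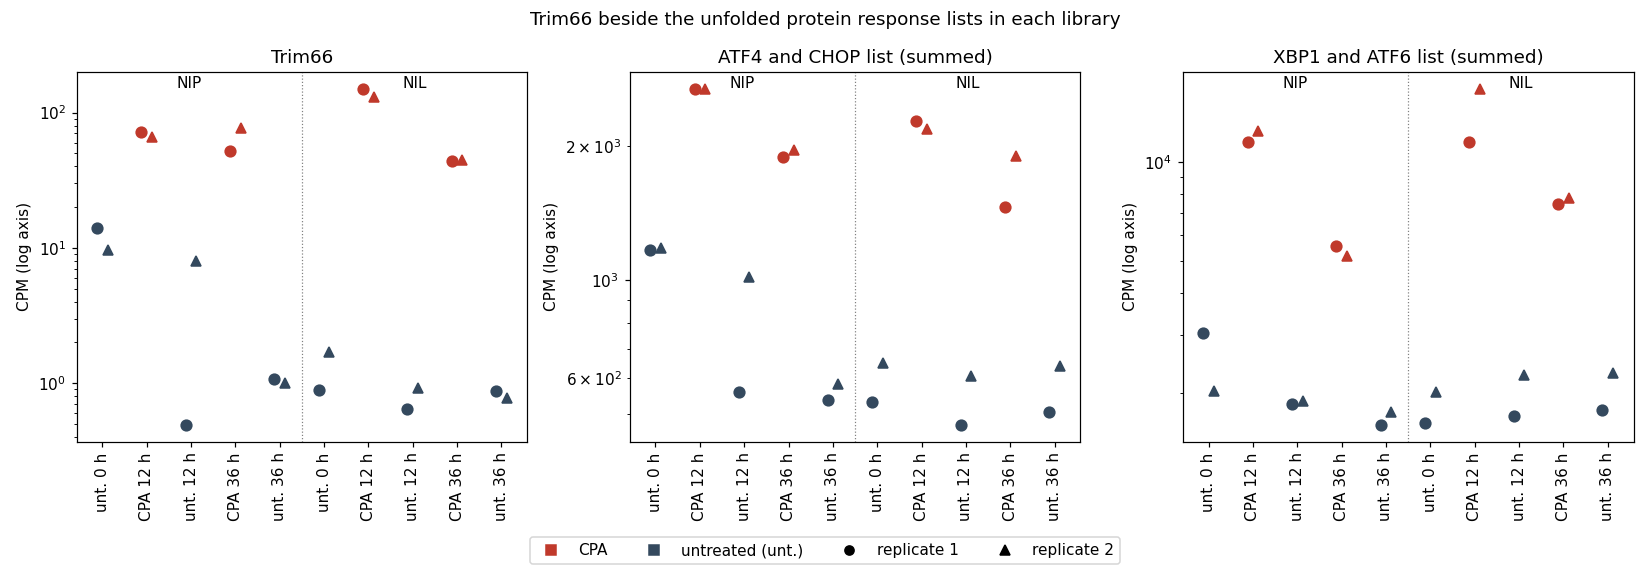
CPM on a log axis in each library for Trim66 and for the summed ATF4 and CHOP list and the summed XBP1 and ATF6 list, NIP left and NIL right of the dotted line; circles are replicate 1 and triangles replicate 2. The untreated NIP libraries at 0 h and replicate 2 at 12 h stand above the other untreated libraries for Trim66 (7.99 to 13.9 CPM) and for the ATF4 and CHOP list (1015 to 1178 CPM).

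In a comparison added after the values had been seen, 6 of the 17 tested genes of the ATF4 and CHOP list were higher in NIP than in NIL at 0 h and 1, Ddit4, was lower, by edgeR with adjustment over all genes; the list's median was 1.11 log2 units, against -0.00054 over all tested genes. The 6 were Atf4, Atf5, Asns (asparagine synthetase), Chac1 (which degrades glutathione), Stc2 and Trib3, the pseudokinase that restrains ATF4 and AKT. Asns was 1.82 ± 0.26 log2 units higher (edgeR adjusted p = 0.000365). Of the 18 genes of the XBP1 and ATF6 list, 4 were higher: Xbp1, Herpud1, Sdf2l1 and Manf, with a list median of 0.321. Among all tested genes 7.86% were higher in NIP at 0 h, 4.61% lower, and 12.5% differed either way. With the replicate block 3896 of 14792 tested genes were called either way, against 1844 without it. Of both lists together 10 genes passed higher, 17 with the replicate block; leaving out 1 library left 3 (without replicate 1 of NIP or of NIL), 4 (without replicate 2 of NIL) or 9 (without replicate 2 of NIP).

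CPA itself raised both lists. Against untreated cultures of the same time, 17 of 18 genes of the XBP1 and ATF6 list passed higher in NIP at 12 h, 14 in NIP at 36 h, 18 in NIL at 12 h and 14 in NIL at 36 h. Of the 17 tested genes of the ATF4 and CHOP list 12, 12, 13 and 8 did, in the same order, and no gene of either list passed lower. With the replicate block all 18 of the XBP1 and ATF6 list passed in each comparison, and 15, 16, 14 and 14 of the ATF4 and CHOP list. Among all tested genes 2.96% passed higher and 1.74% lower in NIP at 12 h (4.71% in all), and 1.33% and 0.994% in NIP at 36 h (2.33%). In NIL 1.55% passed higher and 0.656% lower at 12 h (2.21%), and 0.446% and 0.534% at 36 h (0.98%). These shares are without the block. With it 2083 and 1517 of 14792 tested genes passed either way in NIP at 12 and 36 h, and 1174 and 2697 in NIL. The list medians after 12 h of CPA were 2.62 and 3.29 log2 units in NIP and 2.80 and 2.84 in NIL, against -0.0103 in NIP and -0.0349 in NIL over all tested genes. The chaperone gene Hspa5 (BiP) was 3.23 ± 0.29 log2 units higher in NIP and 3.18 ± 0.29 higher in NIL at 12 h (edgeR adjusted p = 9.6e-05 and 0.000111). At 36 h these counts rest on the untreated libraries: without replicate 1 of untreated NIP at 36 h, a library high in Rn45s, 0 of the 35 tested genes passed in NIP, without its replicate 2 4 did, and without either untreated NIL library at 36 h 0 did in NIL. Without replicate 2 of CPA-treated NIL at 36 h, the other library high in Rn45s, 7 did.

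Neuronal markers were lower with CPA in level, at 1483 to 5034 CPM summed in CPA libraries and 3214 to 6290 CPM in untreated ones. By edgeR none of the 7 passed lower in NIP or in NIL at 12 h, and 1 passed in NIL at 36 h; with the replicate block 4 passed lower in NIP and 4 in NIL at 12 h, and 1 in NIP and 6 in NIL at 36 h. No marker of the other cell types listed passed higher in a CPA comparison without the block, and with it 0 to 2 of a list did, all at 36 h.

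The summed levels of pluripotency, endoderm and mesenchyme markers were nonetheless higher with CPA in NIL at 36 h in both replicates. Those of plasma and exocrine cells were not, with 49.7 CPM with CPA and 71.7 CPM untreated in replicate 2. Pluripotency markers summed to 175 and 675 CPM with CPA, against 52.7 and 341 CPM untreated, endoderm markers to 12354 and 26537 CPM, against 4307 and 15320 CPM, and mesenchyme markers to 224 and 305 CPM, against 84.9 and 208 CPM. Few genes carried much of these sums. Over all CPA and all untreated libraries Klf4 averaged 110 and 38.4 CPM, Pou5f1 12.3 and 11.6 CPM, and Dppa5a 7.25 and 11.9 CPM. Endoderm sums came mostly from Lama1, Col4a1 and Col4a2 (means of 2793, 3308 and 1743 CPM with CPA). Mesenchyme sums came mostly from Pdgfra (112 and 71.4 CPM), while Col1a1 had 0.668 and 1.11 CPM. Motor neuron markers summed to 553 and 322 CPM with CPA, against 896 and 673 CPM untreated, and 1 of the 8 passed lower there (4 with the block). Sums carried by few genes do not count cells, and the part of such cells in the members' levels at 36 h in NIL was not tested.

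By the likeness of their profiles over the 10 group means of log2 CPM, the genes closest to the average member were Glce (Pearson r = 0.988), Ppp1r15a (0.988), Extl1 (0.985), Slc7a11 (0.983), Lonp1 (0.982) and Surf4 (0.979). Ppp1r15a encodes GADD34, which reverses the PERK arm's block on translation; Slc7a11 encodes the cystine transporter. Ppp1r15a averaged 439 CPM in NIP and 208 CPM in NIL after 12 h of CPA. The members' own r to their average ranged over 0.876 for Bhlha15 to 0.985 for Apobr. The 10 points share libraries, so these values are descriptions.

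Of the 10, 4 lie on chromosome 7 (Cyb5r2, Trim66, B230209E15Rik and Apobr), which holds 9.06% of the located genes. Cyb5r2 overlaps Ppfibp2 by 129 bases on the opposite strand, Apobr overlaps Cln3 by 876 bases and Il27 by 103, and Amz1 overlaps Gna12 by 3032 bases. Bhlha15 adjoins Tecpr1 on the opposite strand, with a gap of 0 bases. The strand setting of the counting is not given in the sources used here, so reads from such overlaps and borders cannot be assigned with certainty. Gna12 had 88.2 to 126 CPM in CPA libraries and 83.1 to 120 CPM in untreated ones. In the same order Cln3 had 4.24 to 11.4 and 4.40 to 7.98 CPM, and Tecpr1 35.8 to 86.1 and 45.3 to 93.5 CPM. None of the overlap partners tested, and not Tecpr1, passed in a CPA comparison without the block. With it Ppfibp2 was lower in NIP at 12 h (edgeR adjusted p = 0.0231) and Tecpr1 in NIL at 36 h (edgeR adjusted p = 0.0493).

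Next to Apobr, at a distance of 34136 bases, lies Nupr1, a stress-induced chromatin protein and a gene of the ATF4 and CHOP list. It had 0 to 0.464 CPM without CPA and reached 0.960 to 42.8 CPM with CPA; it had the highest CPA level of the 16 genes that were at most 0.5 CPM in all untreated libraries. The difference passed in NIL at 36 h (edgeR adjusted p = 0.0439). It missed the threshold in NIP at 12 h (edgeR adjusted p = 0.0546), NIL at 12 h (0.124) and NIP at 36 h (0.138). With the replicate block it passed in all 4. Nupr1 had 15 reads over the untreated libraries and 940 with CPA, and those 16 genes were picked on this same contrast. Nothing is therefore read from these p-values. BB557941 lies 3475 bases from Nr4a2 on the same strand. Nr4a2, an orphan nuclear receptor, had 9.33 ± 0.44 CPM in NIP after 12 h of CPA and 4.03 ± 1.69 CPM untreated, a difference that did not pass without the block (edgeR adjusted p = 0.166) and passed with it (0.0028). In the other comparisons Nr4a2 did not pass either way: the log2 difference was -0.05 ± 0.45 in NIP at 36 h, 0.70 ± 0.44 in NIL at 12 h and -0.33 ± 0.45 in NIL at 36 h.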

How the data were processed

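The deposited files hold whole-number read counts per gene for each of 20 libraries. Per the submitters' processing notes, Picard, HTSeq 0.6.1p1, TopHat2 2.1.1 and Bowtie2 2.3.2 were among the tools and GRCm38 (mm10) was the genome; their roles, the annotation release and the strand setting are not given in the sources used here. Libraries were made with KAPA RNA HyperPrep and RiboErase, per the labels' protocols, so unspliced RNA is sampled too. Summary lines that name no gene were left out of library sizes; they held 7.77 to 18.7% (no feature), 0.156 to 0.458% (ambiguous) and 18.2 to 52.6% (not unique) beside the gene reads.

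The members and gene lists were chosen with earlier results of these data known. Members were named by the list itself; their nearest genes and the 6 genes most like their mean profile (log2 of CPM + 0.5 over 10 group means) by rule. Counts were fitted over all 10 groups with edgeR 4.0.16 (filterByExpr, TMM, quasi-likelihood test) in R 4.3.3, with Benjamini-Hochberg adjustment over 14792 genes at 0.05; CPM uses TMM library sizes. Counting intervals are exact 95% binomial ones. Groups were compared as the labels name them. Replicate numbers paired the libraries: deviations of same-numbered libraries correlated at 0.243 to 0.763 over all 45 pairs of groups, so fits with the replicate block stand beside results whose call they change. Replicates differed beyond counting noise (chi-square per degree of freedom 30.1 to 316). The scripts were tested on simulated data. Alternatives were DESeq2 1.42.0, its size factors, no filter, the block, Rn45s left out, the 2 libraries highest in Rn45s left out, the compared groups alone, and each library left out in turn. Positions come from GENCODE on GRCm38.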

Additional observations from a re-analysis of the deposited data

Results flagged for a closer look

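Bhlha15 had estimates of opposite sign for 36 h against 12 h of CPA in the 2 lines, neither of which passed (edgeR adjusted p = 0.859 in NIP and 0.393 in NIL). It had 1.40 and 1.62 CPM at 36 h and 1.68 and 2.01 CPM at 12 h in NIP (replicates 1 and 2), lower at 36 h in both, and 0.888 and 1.03 CPM at 36 h and 0.336 and 0.435 CPM at 12 h in NIL, higher in both. The difference between the lines in this change was -1.60 ± 0.80 log2 units (SE) and did not pass (edgeR adjusted p = 1, unadjusted p = 0.0669). Groups of 2 libraries were not searched for single values that stand apart.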

How the results depend on the processing

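Counts of members called between the lines after 12 h of CPA (2) were 1 with no filter on low counts, 1 without the 2 libraries highest in Rn45s, 4 in the compared groups alone, 3 with the replicate block, and 0 to 0 on leaving out each library. For 36 h against 12 h in NIL (0) the replicate block gave 1, and for the line difference in response at 12 h (0) leaving out each library gave 0 to 1. The 1 was Trim66 without replicate 1 of untreated NIP at 12 h, which leaves that group with the 1 library at 7.99 CPM, assumed to vary like the other groups. No other count of members called changed under the alternatives run.

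Of the 35 tested stress genes, leaving out each library gave 18 to 26 (29) in NIP at 12 h, 0 to 22 (26) in NIP at 36 h, 20 to 26 (31) in NIL at 12 h, 0 to 22 (22) in NIL at 36 h and, between the lines at 0 h, 3 to 9 (10, and 17 with the replicate block). Without the 2 libraries highest in Rn45s the 36 h counts were 0 in NIP and 0 in NIL, and in the groups alone 1 in NIP and 0 in NIL; fewer libraries enter these fits. The members' median CPA level, 1.69 CPM, was 2.01 CPM with Rn45s left out of the total.

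Some uncalled differences changed sign on leaving out each library. NIP minus NIL after 12 h ran from -0.29 to 0.87 for Cyb5r2 and -0.45 to 1.48 for B230209E15Rik, and after 36 h from -0.35 to 1.34 for Fam129a. In NIL, 36 h minus 12 h ran from -0.79 to 0.98 for Fam129a (-0.77 without the 2 libraries highest in Rn45s) and -0.80 to 0.0063 for Apobr. In NIP it ran from -0.41 to 0.13 for Trim66, -0.50 to 0.024 for Fam129a and -1.15 to 0.54 for B230209E15Rik. The cause was not tested.

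Over all genes, calls moved more: between the lines after 36 h 2507 genes passed, 5554 with the replicate block and 298 in the groups alone; for 36 h against 12 h of CPA 56 passed in NIP and 10 in NIL, against 1153 and 1925 with the block. Small differences between untreated groups of members with a few reads were not detectable at this depth.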

Other observations

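Besides BB557941, 15 genes outside the set were at most 0.5 CPM in all 12 untreated libraries and at least 1 CPM in every library of some CPA group; they were picked by this rule on the same contrast, so their levels are a description. After Nupr1, the highest CPA group means were 3.89 CPM for Mettl7b in NIL at 12 h, 3.20 CPM for Isg20, an exonuclease known from interferon responses, in NIL at 36 h, and 1.94 CPM for Nrip2 in NIP at 36 h. Krt6a, a keratin of stressed epithelia, reached 1.72 CPM in NIL at 36 h, and Cyp27b1, which makes active vitamin D, 1.47 CPM in NIP at 12 h. None of the 16 reached 1 CPM in every library of all 4 CPA groups, and the highest group was NIP at 12 h for 7 of them, NIL at 36 h for 6, NIL at 12 h for 2 and NIP at 36 h for 1.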
